A study of Homo sapiens with 6 samples.

Results

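The kinesin motor genes of WM-266.4 cells, a line from a metastatic human melanoma, were examined after knock-down of PIR, the gene of the iron-binding nuclear protein pirin. Members were all genes whose symbol begins with KIF and a digit, plus KIFC1, KIFC2 and KIFC3, that had an Affymetrix HG-U133 Plus 2 probe set (a group of short oligonucleotide probes summarised as 1 signal) annotated to that gene alone. This gave 45 of the 19775 genes so represented, namely 41 motor genes and 4 RNA genes named after a neighbouring kinesin. The listed kinesin genes KIF4B and KIF28P had no such probe set and were not analysed here. The siPIR cells received 200 pmol of a pool of 4 siRNA duplexes against PIR, the siCTR cells 200 pmol of a pool of 4 non-targeting duplexes, and the NO cells the Oligofectamine reagent without any oligonucleotide. All were transfected in medium without serum 24 h after seeding and harvested 72 h later. For each group RNA of 3 separate extractions was mixed into 1 pool, and the labelled pool was placed on 2 arrays. Each group is therefore 1 sample (n = 1 pool), the 2 arrays are repeat hybridisations, and no difference between pools has a replicate of the culture behind it.

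Kinesins are ATP-driven motors that walk along or take apart microtubules. One set builds and moves the mitotic spindle, holds chromosomes to it and divides the cell, and its transcripts are known to accumulate toward division in cycling cells. The other large set carries vesicles, organelles and protein complexes at all times of the cell cycle, and in melanocytes brings melanosomes toward the cell edge. A smaller set acts in or at the cilium. Many genes of mitosis carry near their start the cell cycle homology region (CHR), an element bound by MuvB complexes, together with CCAAT boxes, which are bound by NF-Y.

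The promoters of the mitotic kinesins shared these letters. In RefSeq promoters (GRCh38.p14, 250 bases before to 50 after a gene's start) the CHR was searched as TTTGAA or TTCGAA and the CCAAT box as CCAAT, each on both strands; the motifs can share at most 1 base with each other. A gene counts as holding a motif if any of its promoters does. Of the 43 listed kinesins, 34 had a promoter entry, and the 9 others are KIF13B, KIF19, KIF21B, KIF26B, KIF27, KIF28P, KIF5A, KIFC2 and KIFC3. A CHR was found in 11 of 14 mitotic kinesins (78.6%), 1 of 12 transport kinesins (8.33%), against 19.5% of all 27305 genes with a promoter and 16.4% of all 35116 promoters. A CCAAT box was found in 11 of 14 mitotic (78.6%) and 4 of 12 transport kinesins (33.3%), against 39.7% of all genes and 34.6% of all promoters. Both motifs stood in 1 promoter in 10 of 14 mitotic kinesins (71.4%) and in 1 of 12 transport kinesins, against 7.85% of all genes and 6.38% of all promoters. Of the 4 cilium kinesins with an entry KIF24 held both. The stretches below run from 100 bases before to 20 after the start, with CHR and CCAAT letters of either strand in capitals. KIF11, KIF4A, KIF18A, KIF22 and KIFC1 show the pair. KIF20A and KIF2C are the measured mitotic kinesins without TTTGAA or TTCGAA, and KIF5B and KIF3C are transport kinesins for contrast.
KIF11: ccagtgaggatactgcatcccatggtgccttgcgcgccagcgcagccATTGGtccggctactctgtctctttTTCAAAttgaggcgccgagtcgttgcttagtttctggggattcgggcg
KIF4A: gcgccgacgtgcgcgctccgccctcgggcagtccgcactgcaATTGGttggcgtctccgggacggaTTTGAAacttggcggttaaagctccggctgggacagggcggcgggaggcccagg
KIF18A: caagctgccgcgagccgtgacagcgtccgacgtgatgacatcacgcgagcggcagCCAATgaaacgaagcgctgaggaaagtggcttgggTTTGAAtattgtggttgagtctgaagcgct
KIF22: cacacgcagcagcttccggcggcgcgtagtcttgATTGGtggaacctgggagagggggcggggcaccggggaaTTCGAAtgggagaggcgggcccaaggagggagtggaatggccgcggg
KIFC1: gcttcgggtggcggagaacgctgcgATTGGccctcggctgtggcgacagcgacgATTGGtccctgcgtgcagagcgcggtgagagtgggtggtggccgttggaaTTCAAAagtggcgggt
KIF20A: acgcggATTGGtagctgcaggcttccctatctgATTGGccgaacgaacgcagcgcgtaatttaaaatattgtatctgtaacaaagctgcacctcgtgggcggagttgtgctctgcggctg
KIF2C: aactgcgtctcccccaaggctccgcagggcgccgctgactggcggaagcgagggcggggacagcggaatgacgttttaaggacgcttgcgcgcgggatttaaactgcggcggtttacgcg
KIF5B: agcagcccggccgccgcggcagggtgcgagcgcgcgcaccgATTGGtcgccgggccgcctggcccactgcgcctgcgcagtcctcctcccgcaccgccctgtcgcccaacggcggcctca
KIF3C: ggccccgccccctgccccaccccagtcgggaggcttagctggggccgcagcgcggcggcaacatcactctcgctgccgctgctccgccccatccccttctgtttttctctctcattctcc
These lie at chr10:92593030-92593149 (plus strand) for KIF11, chrX:70290004-70290123 (plus) for KIF4A and chr11:28108137-28108256 (minus) for KIF18A. That of KIF22 is at chr16:29790651-29790770 (plus), KIFC1 at chr6:33391723-33391842 (plus), KIF20A at chr5:138179012-138179131 (plus) and KIF2C at chr1:44739737-44739856 (plus). Those of KIF5B and KIF3C are at chr10:32056406-32056525 and chr2:25982478-25982597 (both minus).

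In 8 mitotic kinesins a CCAAT box began 23 to 50 bases before the CHR. The spacing was 23 bases in KIF14, 24 in KIF4A and KIF4B, 25 in KIF11, 34 in KIF18B, 35 in KIF18A, 39 in KIF22 and 50 in KIFC1. KIF23 had them 9 bases apart and KIF20B 122 bases apart. The lone transport kinesin with both, KIF5B, has its CHR 140 bases before the start, upstream of its CCAAT box. KIF15 had a CHR and no CCAAT box, and KIF20A had a pair of CCAAT boxes and no CHR. KIF2C and KIF2B had neither. After these values were seen, TTTAAA was searched too: KIF20A, KIF2C, KIF14 and KIF23 of the mitotic kinesins hold it, as do KIF16B and 14.5% of all genes with a promoter.

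**Figure D1:**
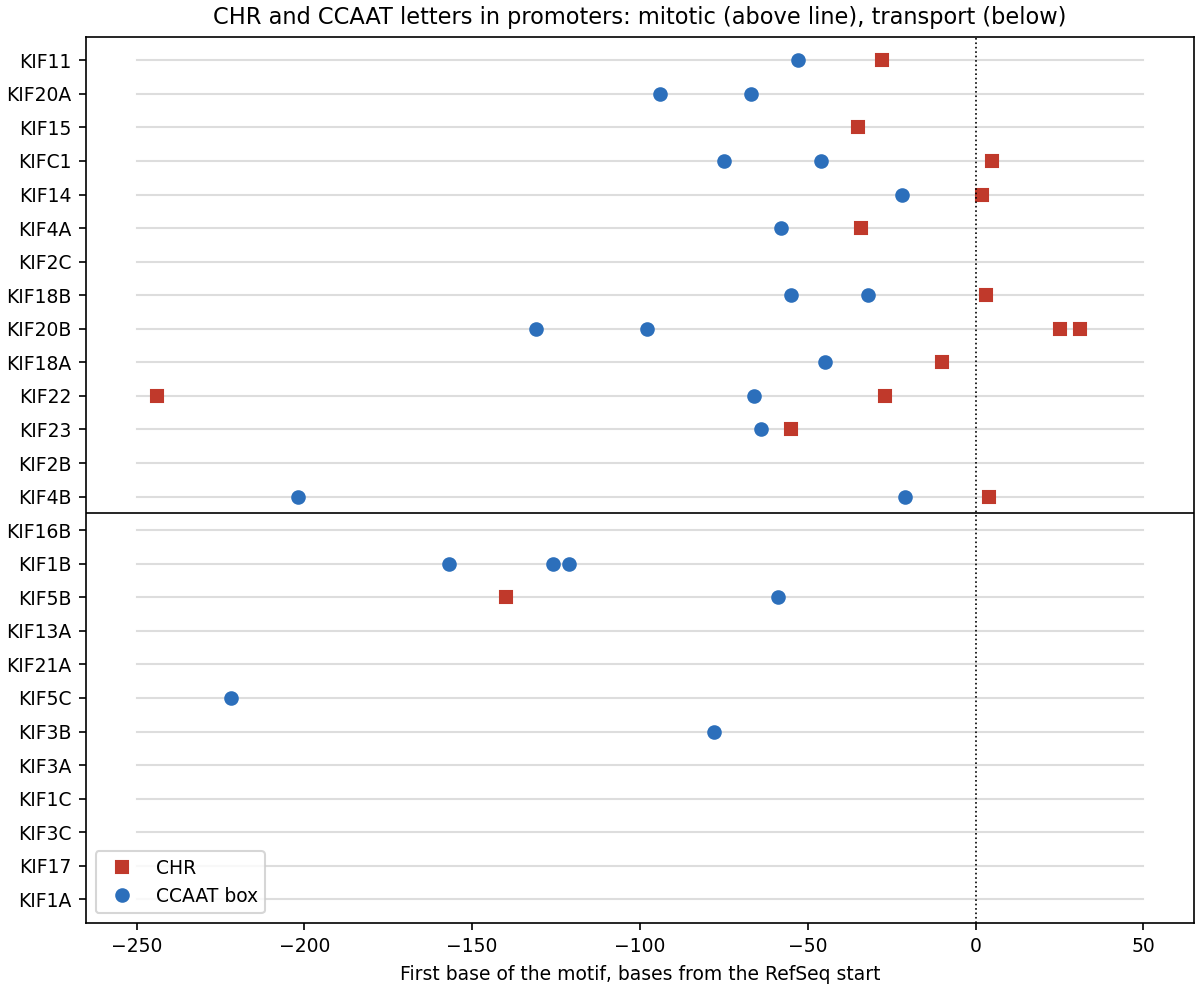
Position of the first base of each CHR (squares) and CCAAT box (circles) in bases from the RefSeq start, for mitotic (above the line) and transport kinesins (below); genes with several promoters show the motifs of each. In 11 mitotic kinesins a CHR lies between 55 bases before and 36 after a start. That of KIF22 appears again at the far end of its second promoter, which is the same site counted from another start. The lone CHR among transport kinesins starts 140 bases upstream.

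The knock-down was checked first. PIR was at 392.3 and 381.5 on the siPIR arrays, at 13544 and 13180 in siCTR cells and at 13990 and 14153 in NO cells, a log2 difference of -5.09 from siCTR and -5.17 from NO. The median intensity of an array was 64.2 to 74.8. On the 8272 genes called bright (a pool mean above 458.4, the 75th percentile of all values), log2 values of repeat arrays correlated at 0.992 to 0.994 and those of siPIR arrays with control arrays at 0.924 to 0.941. All 7 melanocyte markers with a probe set (MITF, SOX10, PMEL, MLANA, TYR, TYRP1 and S100B) were bright, and none of 15 endothelial, leukocyte, keratinocyte and fibroblast markers was. Of the lists that were not bright, the summed intensity of the 4 leukocyte markers was 378 and 496 on siPIR arrays, 185 and 317 on siCTR arrays, and 242 and 355 on NO arrays. The 3'/5' ratio of ACTB probe sets, which is higher in degraded RNA, was 1.13 on both siPIR arrays, against 1.23 to 1.27 on the control arrays. The part of either in the results below was not tested.

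Of the 41 motor genes, 33 were measured, that is, had a pool mean above 70.2, the median of all values. These were 12 of 13 mitotic, 14 of 17 transport, 4 of 6 cilium and 3 of 5 other kinesins. Not measured were KIF2B, a mitotic kinesin known from testis, the transport kinesins KIF1A, KIF17 and KIF21B, which are known from neurons, and KIF24, KIF27, KIF12 and KIF26A. Differences are between pool means of log2(intensity + 5.4), which understates those of dim genes, and ranges after them are over the 4 pairs of arrays. A gene was called when the difference was at least 1 (2-fold) in size and the arrays of the 2 pools did not overlap. The rule weighs size against array error and gives no p-value.

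Mitotic kinesins, a class listed with earlier results of these data known, were lower in the siPIR pool as a group. Against both controls, 10 of 12 measured mitotic kinesins were called lower and 0 higher, where 3.22% of 13071 measured genes were called lower. Against siCTR alone all 12 were called (4.26% of all genes), and against NO 10 (5.48%). All 12 are bright by their control pools, but in siPIR only KIF14, KIF2C and KIF23 had a mean above 458.4. The same call was made lower for 3.41% and higher for 0.919% of the bright genes. As the other mitotic kinesins count as bright through the controls alone, these shares give their lower calls no separate support. Their median difference from siCTR was -1.68 and from NO -1.68 on the log2 scale, a 3.20-fold and 3.19-fold lower level, where the medians of all measured genes were 0.05 and 0.03. In all 12, both siPIR arrays lay below all 4 control arrays, an order that 23.2% of measured genes showed. In RNA of whole cultures, fewer cells in division and less transcript per dividing cell cannot be told apart.

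The motors that set up the spindle included KIF11, the lowest against both controls. KIF11, which slides microtubules apart to separate the spindle poles, had 470 and 412 on the siPIR arrays, 1886 and 1938 on siCTR and 2059 and 2020 on NO. Its siPIR arrays were below 500 and every control array several-fold brighter, with log2 differences of -2.11 (-2.22 to -1.99) and -2.20 (-2.31 to -2.09). KIF15, which can stand in for KIF11 in keeping a spindle bipolar, had 182 and 207 in siPIR, 767 and 728 in siCTR and 621 and 624 in NO. Its differences were -1.91 (-2.04 to -1.79) and -1.65 (-1.75 to -1.56), and the pools did not overlap. KIFC1, a minus-end motor that pulls poles and extra centrosomes together, had 159 and 297 in siPIR, 831 and 826 in siCTR and 1011 and 780 in NO. Its siPIR arrays differed most from each other among the mitotic kinesins, so that its difference of -1.90 from siCTR ranged from -2.34 to -1.46 and that from NO from -2.62 to -1.38.

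Motors that move or hold chromosomes, or trim microtubules, had differences from -1.81 to -1.22. KIF4A, a chromosome-bound motor that also shortens the overlap zone with PRC1, had 375 and 350 in siPIR, 1154 and 1225 in siCTR and 1317 and 1256 in NO (-1.70 and -1.81). KIF2C, which takes microtubule ends apart to correct faulty attachments, had 832 and 813 in siPIR, 2690 and 2523 in siCTR and 2187 and 2264 in NO (-1.66 and -1.43). For both, the siPIR arrays lay far below the closest control array. KIF18B, which limits the microtubules that reach the cell cortex, had 285 and 389 in siPIR, 996 and 1012 in siCTR and 1039 and 1150 in NO (-1.58 and -1.70). KIF18A, which dampens the swing of chromosomes at the metaphase plate, had 271 and 262 in siPIR, 597 and 714 in siCTR and 660 and 608 in NO (-1.28 and -1.23). KIF22, which pushes chromosome arms from the poles, had 243 and 296 in siPIR, 689 and 592 in siCTR and 569 and 701 in NO (-1.24 and -1.22). All 3 were called lower than both controls, with no overlap of arrays. Averaged over its probe sets, KIF22 differed from siCTR by -0.94, short of 2-fold.

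The motors of cytokinesis held both the strong and the weak members. KIF20A, which carries the chromosomal passenger complex to the central spindle, had 388 and 363 in siPIR, 1330 and 1644 in siCTR and 1439 and 1333 in NO (-1.96 and -1.87). KIF14, which recruits citron kinase to the midbody, had 587 and 800 in siPIR, 2551 and 2495 in siCTR and 2421 and 2315 in NO (-1.87 and -1.78). Both were called lower than both controls. KIF20B, needed late in cytokinesis, had 307 and 385 in siPIR, 825 and 883 in siCTR and 683 and 609 in NO. It was called lower than siCTR (-1.30) but not than NO (-0.90), and siCTR minus NO was 0.40. KIF23, the motor of centralspindlin, had 542 and 769 in siPIR, 1349 and 1273 in siCTR and 1092 and 1261 in NO. Its differences of -1.01 and -0.86 straddled the 2-fold line, and the difference from siCTR was -0.76 without siPIR replicate 1 and -0.97 without siCTR replicate 1, both short of the call. It was also short of it averaged over its probe sets (-0.75). For neither gene did siPIR arrays overlap with control arrays.

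**Figure D2:**
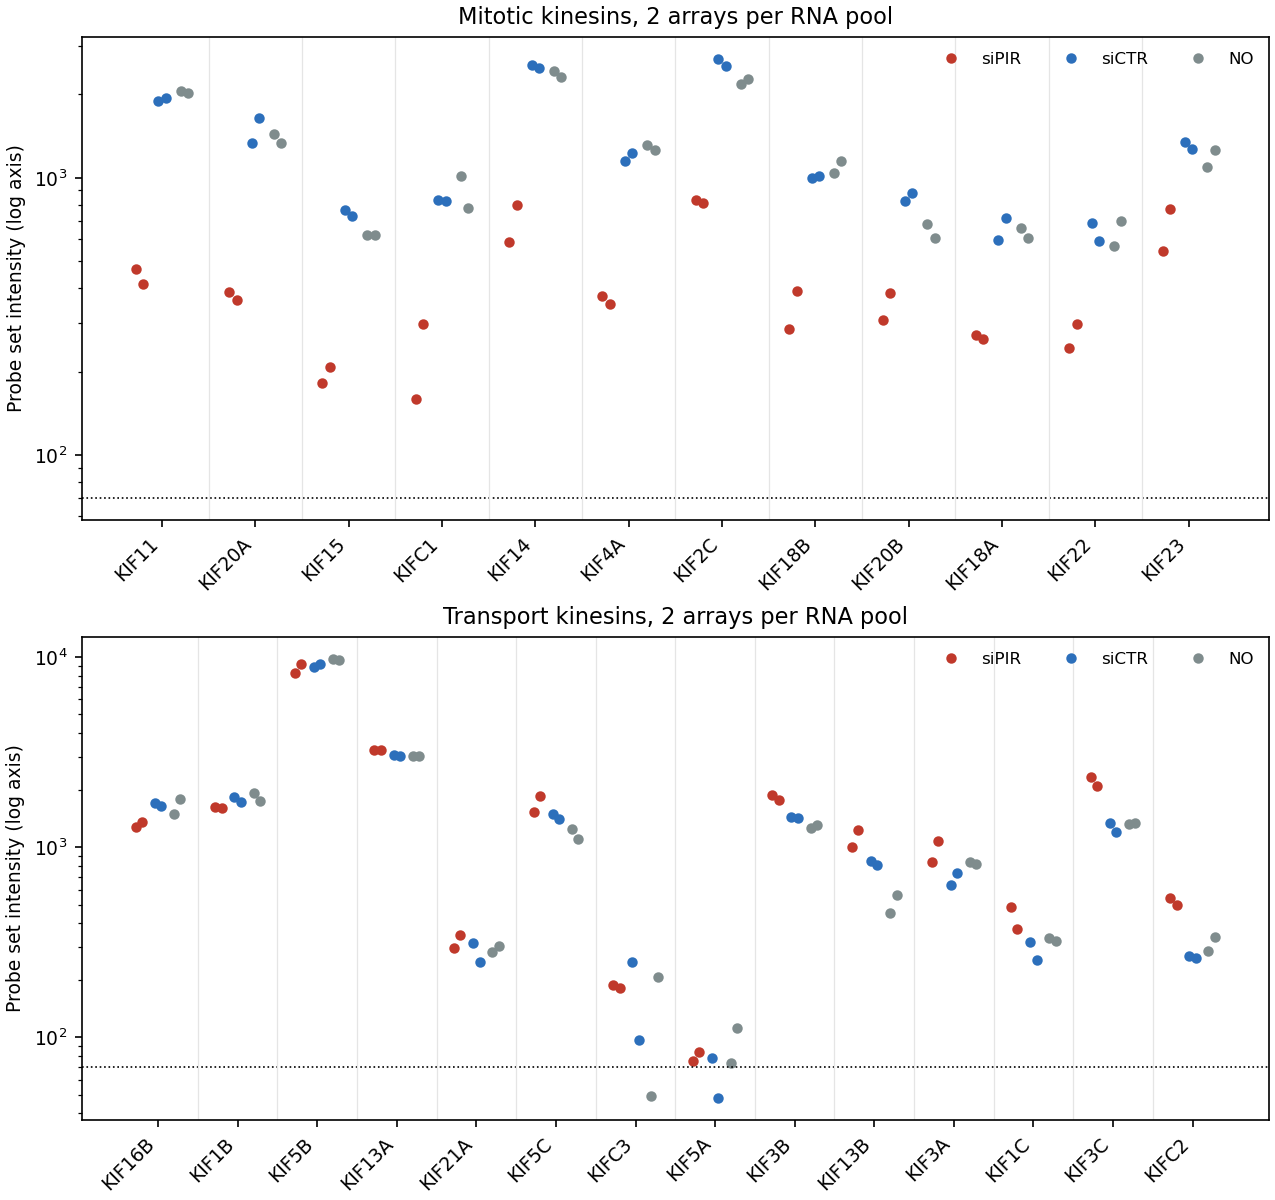
Probe set intensity (log axis) of the measured mitotic (top) and transport kinesins (bottom), each point 1 array, for siPIR, siCTR and NO from left to right within a gene; the dotted line is the 70.2 needed to be measured, and intensities of different genes are not comparable. In each mitotic kinesin both siPIR points lie below all control points, while among transport kinesins they lie above in 8, below in 2 and overlap in 4.

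Between the control pools the mitotic kinesins barely differed. siCTR minus NO ranged from -0.12 (KIF18B) to 0.40 (KIF20B) with a median of 0.07, and 0 of 12 were called. Of all measured genes, 1.04% were called higher and 2.47% lower in siCTR than in NO. Of all 33 kinesins KIF25 alone was called, lower in siCTR.

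Only KIF20A and KIF2C of the measured mitotic kinesins lacked the CHR letters searched, TTTGAA or TTCGAA, too few to compare. Both hold TTTAAA, which was not counted as a CHR here. The 10 measured with a CHR had medians of -1.64 and -1.68 against siCTR and NO, and the 2 without it -1.81 and -1.65. Across all 701 measured genes with both motifs in a promoter, 10.6% were called lower and 1.14% higher than both controls. Of 5260 with neither motif, 2.13% were called lower and 1.41% higher. These shares describe the pools and include the kinesins.

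Transport kinesins did not share the lower level. Of 14 measured, 0 were called in either direction against both controls, where 1.52% of all genes were called higher. Their medians were 0.29 against siCTR and 0.29 against NO, a 1.22-fold higher level. In 8 of 14 both siPIR arrays lay above all control arrays, an order seen in 28.4% of all measured genes, and in 2 below. The median of the mitotic class minus that of the transport class was -1.97 against siCTR and -1.96 against NO, a 3.91-fold and 3.90-fold gap. Between siCTR and NO it was 0.11. The ranges of the classes did not overlap: against siCTR the mitotic kinesins ran from -2.11 to -1.01 and the transport kinesins from -0.35 to 0.96, and against NO from -2.20 to -0.86 and from -0.31 to 1.13. This separation depends on the class list: KIF2A, which works at spindle poles but was placed in neither class, differed by -0.28 and -0.14, inside the transport ranges, so that the ranges overlap if it is counted as mitotic. With KIF2A so counted, and KIF21A, KIFC2 and KIFC3 left out of the transport class, the mitotic medians were -1.66 and -1.65 and the transport medians 0.34 and 0.21. Genes are not replicates, so no test was made of this gap.

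The conventional kinesin heavy chains, which move many cargoes with light chains, stayed close to the controls. KIF5B, the form of most tissues, had 8275 and 9253 in siPIR, 8873 and 9217 in siCTR and 9824 and 9668 in NO (-0.05 and -0.16). Another bright probe set of KIF5B gave 0.05 and 0.40, with 6572 and 6373 in siPIR and 4860 and 4968 in NO, so its direction depends on the probe set. KIF5C had 1526 and 1871 in siPIR, 1493 and 1413 in siCTR and 1249 and 1102 in NO (0.22 and 0.52), with no overlap. KIF5A was dim, at 48.3 to 112 on all arrays, and its pools overlapped (0.34 and -0.18).

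The subunits of heterotrimeric kinesin, which moves melanosomes outward and serves the cilium, were not called, and their directions differed between probe sets for 2 of 3. KIF3B had 1882 and 1778 in siPIR, 1444 and 1424 in siCTR and 1264 and 1305 in NO (0.35 and 0.51). KIF3A, its partner, had 839 and 1080 in siPIR, 631 and 736 in siCTR and 837 and 813 in NO (0.48 and 0.21). KIF3C, an alternative partner of KIF3A, had 2346 and 2094 in siPIR, 1336 and 1211 in siCTR and 1320 and 1338 in NO (0.80 and 0.74). The arrays of KIF3A came within a few units of NO, while those of KIF3B and KIF3C lay clear of both controls. A second probe set of KIF3C gave -0.25 and -0.29, and one of KIF3A gave 0.34 and -0.23, with 602 and 539 in siPIR and 692 and 650 in NO. The second probe set of KIF3B gave 0.28 and 0.15.

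KIFC2, a minus-end motor of neurons, came closest to a call against siCTR. It had 542 and 500 in siPIR, 270 and 262 in siCTR and 286 and 339 in NO, a difference of 0.96 (0.88 to 1.03) and 0.73 (0.55 to 0.91). The second measured probe set of KIFC2 gave 0.41 and 0.89. KIF13B, which carries a phosphoinositide-binding cargo to the cell edge, had 1003 and 1230 in siPIR, 847 and 812 in siCTR and 452 and 563 in NO. It was called higher than NO (1.13; 3.67% of all genes were) and not than siCTR (0.42), and was 0.71 higher in siCTR than in NO. Its difference from NO was 0.97 without NO replicate 1 and 0.98 without siPIR replicate 2, short of the call.

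The motors of vesicles and endosomes lay within 1.5-fold of both controls, except KIFC3 against NO. KIF13A, which brings endosomes to melanosomes, had 3263 and 3257 in siPIR, 3077 and 3020 in siCTR and 3037 and 3029 in NO (0.10 and 0.10). Its other measured probe sets were far dimmer and disagreed in direction, at -0.44 and -0.52, 0.24 and -0.17, and 0.15 and 0.08. KIF1B differed by -0.14 and -0.18 and KIF1C by 0.57 and 0.37, while KIF21A (0.19 and 0.14) and KIFC3 (0.24 and 0.82) overlapped with the controls. KIF16B, an endosome motor, had 1275 and 1359 in siPIR, 1707 and 1656 in siCTR and 1502 and 1789 in NO (-0.35 and -0.31), but 0.93 and 1.18 on its other measured probe set.

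**Figure D3:**
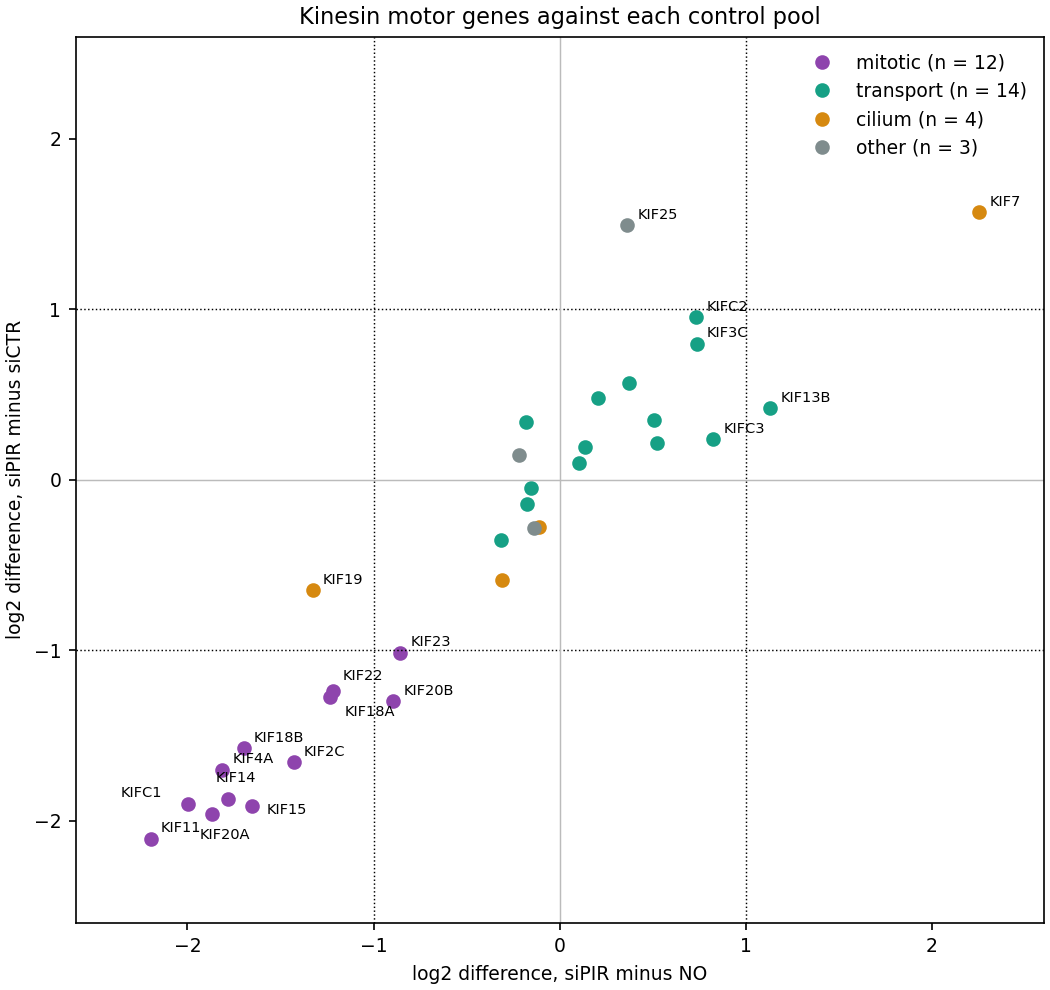
Log2 difference of each measured kinesin motor gene, siPIR minus NO (horizontal) and siPIR minus siCTR (vertical), coloured by class; dotted lines mark 2-fold, and the axes share the siPIR pool. The 12 mitotic kinesins fill the lower left, the 14 transport kinesins surround the centre, and KIF7 stands alone at the upper right.

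Of the cilium kinesins, KIF7, which sits at the cilium tip and regulates Hedgehog signalling, was called higher than both controls, as were 1.52% of all genes. It had 185 and 117 in siPIR, 30.2 and 68.9 in siCTR and 26.1 and 27.2 in NO, with differences of 1.57 (0.72 to 2.42) and 2.25 (1.91 to 2.59). The pools did not overlap, but both control means (49.6 and 26.7) are under the 70.2 needed to be measured. KIF7 thus passed the filter through the siPIR pool alone, and the sizes of its differences are against signals below that limit. KIF9, known from motile cilia, differed by -0.28 and -0.11 on a probe set with the suffix _x_at, whose probes can match several transcripts, and its 4 measured probe sets disagreed in direction. The one without that suffix (103.8 and 89.0 in siPIR, 16.2 and 19.2 in siCTR, 20.9 and 27.2 in NO) also passed through siPIR alone, and its differences of 2.14 and 1.79 are against controls far below the limit. KIF19 had 27.3 and 21.7 in siPIR, 82.1 and 19.5 in siCTR and 45.3 and 104.7 in NO. It was called lower than NO only (-0.65 and -1.33), and it passed the filter through NO alone, with siPIR arrays well below the limit. KIF6 (-0.59 and -0.31) was not called, and it passed through siCTR alone.

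Of the others, KIF2A, a relative of KIF2C that works at spindle poles and in neurons, differed little. It had 1164 and 1098 in siPIR, 1325 and 1429 in siCTR and 1226 and 1262 in NO (-0.28 and -0.14). KIF26B, which has lost motor activity, differed by 0.15 and -0.22. KIF25 was called higher than siCTR (1.496; 3.75% of all genes were) but not than NO (0.36) on a dim _x_at probe set whose siCTR mean of 49.4 is under the limit. Without siCTR replicate 2 the difference from siCTR was 0.67, and its other measured probe set gave -1.21 against siCTR. Of the 4 RNA genes, KIF9-AS1 alone was measured, at 30.1 to 157 with overlapping pools.

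All probe sets of mitotic kinesins that were measured pointed down. Of 15, all 15 were lower than both controls in mean. Of 29 measured probe sets of transport kinesins, 18 were higher than both controls, 7 lower and 4 mixed. Second probe sets of KIF14 (-1.81 and -1.68) and KIF2C (-1.59 and -1.45) were close to the first, while that of KIF22 gave -0.64 and -1.12.

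**Figure D4:**
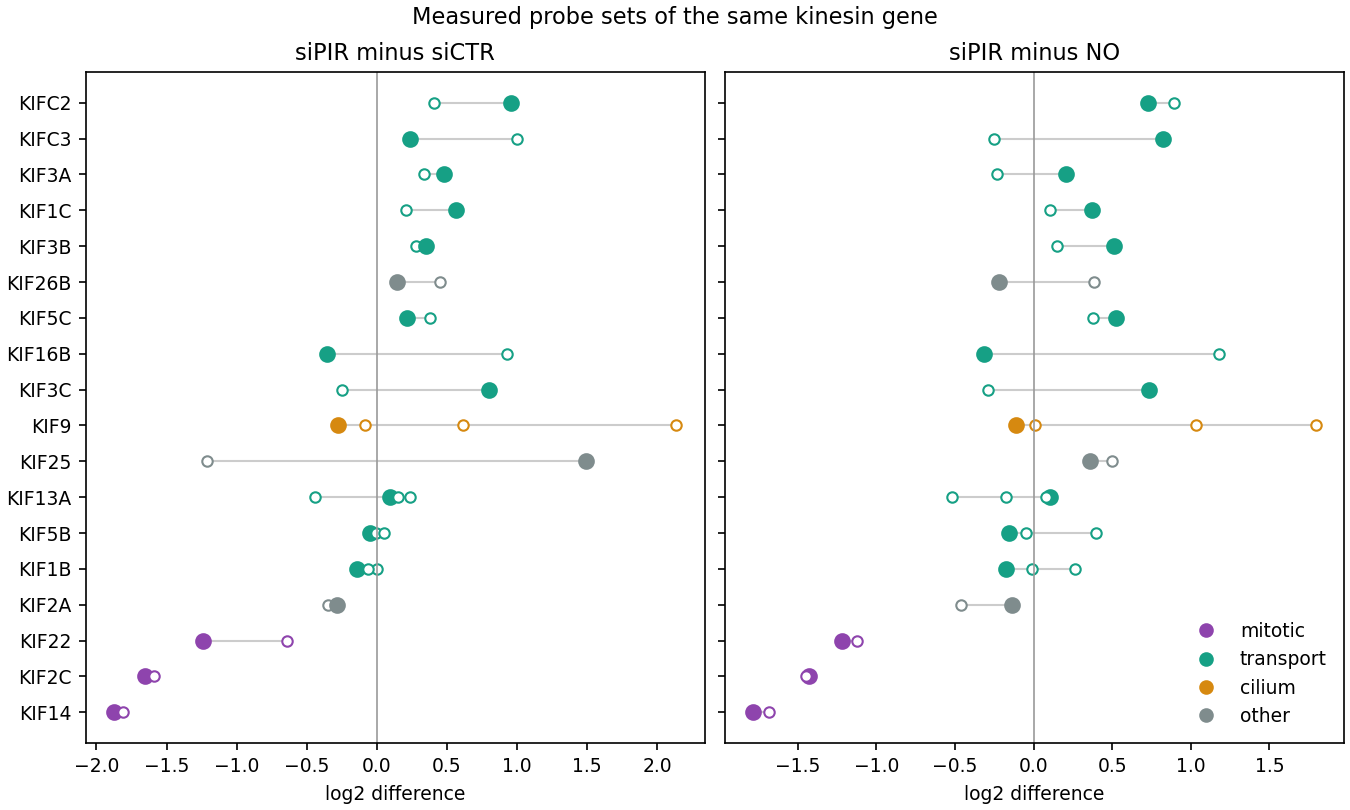
Log2 differences of siPIR from siCTR (left) and from NO (right) for each measured probe set of kinesins that have several; filled points represent the gene, open points are its other probe sets. Probe sets of KIF14, KIF2C and KIF22 all lie below 0, while those of KIF3C, KIF16B and KIF9 lie on both sides.

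The listed partners of the mitotic kinesins were mostly lower too, but this list was chosen with earlier results of these data known. Of 18 measured spindle and cytokinesis partners, 15 were called lower and 0 higher than both controls, where 3.22% and 1.52% of all measured genes were. Their medians were -1.62 and -1.53. The 6 with the largest difference from the nearer control were HMMR, a spindle protein (-2.02 and -1.92), ANLN, a scaffold of the contractile ring (-1.85 and -1.86), CENPE, the kinetochore kinesin whose symbol lies outside the naming rule (-2.04 and -1.84), NUSAP1, which bundles spindle microtubules (-1.81 and -1.78), BIRC5, of the passenger complex (-1.70 and -1.61), and ECT2, which activates RhoA for cytokinesis (-1.57 and -1.81). CENPE had 189 and 227 in siPIR, 902 and 832 in siCTR and 813 and 704 in NO. The 3 not called were INCENP (-0.43 and -0.25), KNSTRN (-0.64 and -0.58) and NUMA1 (0.26 and 0.30).

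The partners of transport kinesins and the opposing motor, cytoplasmic dynein, mostly stayed within 2-fold of the controls. Both siPIR arrays lay above all control arrays in 9 of 23 measured partners and 13 of 24 dynein and dynactin genes (28.4% of all measured genes). They lay below all of them in 2 genes of each list (23.2%). Of 23 measured light chains, adaptors and cargo linkers, 1 was called higher and 0 lower than both, where 1.52% and 3.22% of all genes were, with medians of 0.20 and 0.27. The one called was SYBU, which links conventional kinesin to vesicles in neurons, at 132 and 149 in siPIR, 58.1 and 4.8 in siCTR and 31.7 and 68.0 in NO (2.51 and 1.48). It was measured through siPIR alone, and both control means are under 70.2, so the call rests on signals below the limit. Among the rest, HAP1 differed by -1.01 and -2.19, with all siPIR and siCTR arrays below the limit and NO alone above it, PLEKHM2, which ties kinesin to lysosomes, by 0.66 and 0.40, and the light chain KLC1 by 0.45 and 0.66. Of 24 measured dynein and dynactin genes, 1 was called higher and 0 lower than both, against the same shares of all genes, with medians of 0.14 and 0.27. It was DYNC1H1, the dynein heavy chain, at 5316 and 5235 in siPIR, 2573 and 2546 in siCTR and 2517 and 2731 in NO. Its differences were 1.04 (1.02 to 1.06) and 1.01 (0.94 to 1.08), the latter on the 2-fold line. Of the others, NDE1 (-0.54 and -0.31), DYNLT3 (0.52 and 0.76) and PAFAH1B1 (-0.52 and -0.44) had the largest differences from siCTR.

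**Figure D5:**
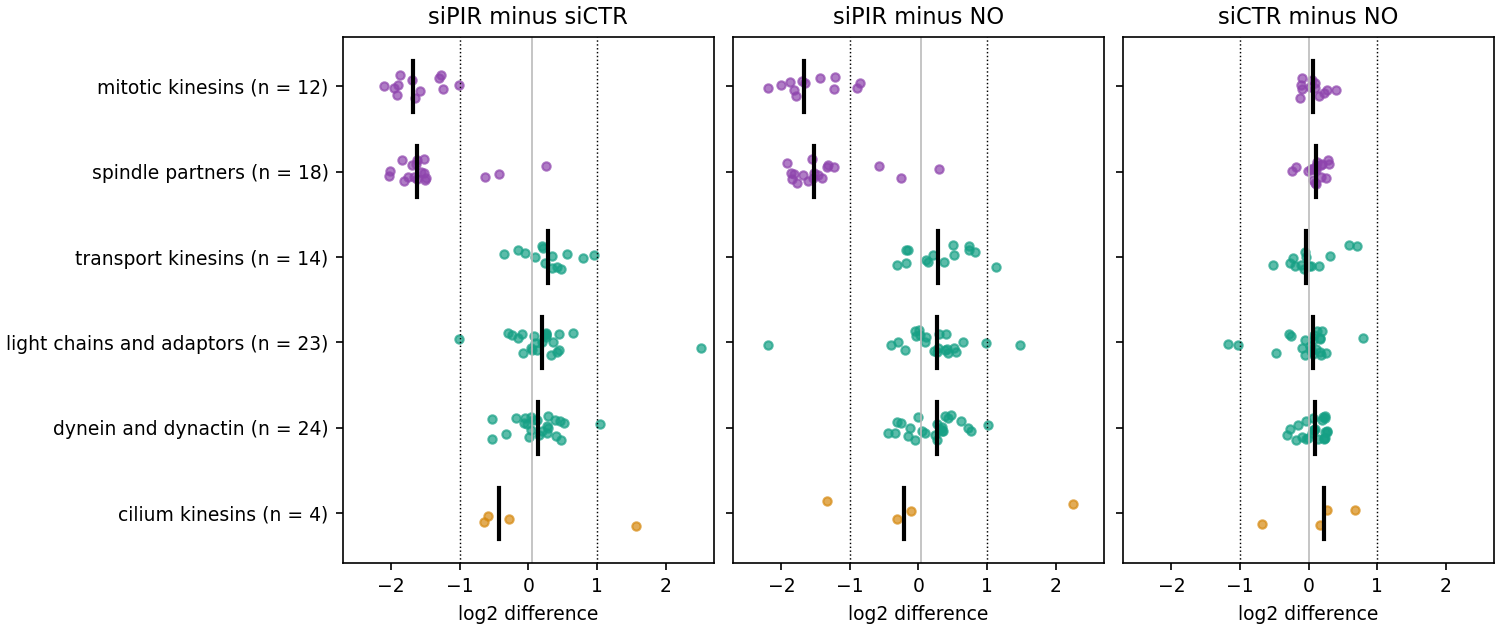
Log2 differences of measured genes by group in the 3 comparisons; each point is a gene, black bars are group medians, the grey line is the median of all measured genes and dotted lines mark 2-fold. Mitotic kinesins and their partners lie mostly below -1 in both siPIR comparisons and near 0 between the controls.

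A fit across pools was made with limma, siPIR against siCTR and NO as 2 control pools, which leaves 1 residual degree of freedom and assumes that siPIR pools would vary like the controls. No gene of 13071 passed an adjusted p of 0.05 (0% called in each direction), the smallest being 0.141, and 0 kinesins were called. At an unadjusted p under 0.05, all 12 mitotic kinesins were lower (10.9% of all genes were) and KIF3C, KIFC2 and KIF7 higher (10.1% of all genes were). For KIF7 this p cannot decide whether it was higher, because KIF7 entered the fit through the siPIR pool alone. Both of its control means are under the 70.2 needed to be measured. When limma was fitted to the bright genes alone, the 12 mitotic kinesins were called lower, with adjusted p from 1.8e-05 (KIF11) to 0.00204 (KIF23), where 13% of the bright genes were called lower. KIFC2 (adjusted p = 0.00427), KIF3C (0.00507) and KIF13B (0.0380) were called higher in that fit, as were 12.4% of the bright genes. KIFC2 was bright through the siPIR pool alone (mean 521, against 266 in siCTR and 313 in NO), so its adjusted p cannot decide whether it was higher. Of the 12 mitotic kinesins, only KIF14, KIF2C and KIF23 had a siPIR mean above 458.4. The others were bright through the control pools alone, so their adjusted p-values cannot decide whether they were lower. All these adjusted p-values also assume that the bright genes vary about equally between pools. In simulated data a small share of genes, drawn at random, varied more than the rest. That share was set by the bright genes whose mean over pools is under 458.4. Far more of the calls were then false than the threshold allows.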

How the data were processed

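Total RNA of 3 pools (siPIR, siCTR, NO; 2 arrays each) was profiled on HG-U133 Plus 2 arrays. The authors deposited 1 linear intensity per probe set and array, which GCOS produced per the submitters' processing notes; its version and scaling settings are unknown here. With 2% of probe sets trimmed at either end every array averaged 499.9, which hides any change in how much RNA a cell holds. Values were used as log2(value + 5.4), the 10th percentile as pseudocount. The platform annotation names 1 gene for 41097 of 54675 probe sets and several for 1801; 11777 have none listed. Symbols were matched to RefSeq (99.9%; 0 changed). The brightest probe set represented a gene, and arrays of a pool were averaged first. Differences between 2 pools have no test. The fit used limma 3.58.1 in R 4.3.3 with Benjamini-Hochberg adjustment over 13071 genes and was tested on simulated data. The test of the fit to bright genes gave all genes an equal spread. A first one, with a wider spread for a share of them, had given too many false calls. All kinesins were named, and of each partner list those called (at most 6) or the 3 largest differences from siCTR. Members, classes and lists were chosen with earlier results of these data known. The search for TTTAAA and the use of 1 promoter per gene were added after the data were seen. Precision is limited by having 1 pool per group.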

Additional observations from a re-analysis of the deposited data

How the results depend on the processing

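No paired analysis was possible because arrays with the same number are repeat hybridisations of different pools and the counts come from no test. With 1 pool per group, variation between cultures is unknown, and dim kinesins such as KIF7 and KIF25 are limited by signal over background. Scaling by array medians or quantiles moved the median of all genes by under 0.1. The counts below are of the 33 measured kinesins or their classes. Lower than siCTR, 12 were called, but 7 without _x_at and _s_at probe sets, which leaves fewer genes. Higher than siCTR, 2 were called, 0 when only bright genes were kept (the 75th percentile), 1 as the mean over probe sets and 4 at 1.5-fold. Higher than NO, 2 were called, 1 with the 75th percentile required and 4 at 1.5-fold. Higher than both, 1 (KIF7) was called, 0 with the 75th percentile required, 2 without _x_at and _s_at probe sets and 3 at 1.5-fold, of which 2 were transport kinesins (KIF3C and KIFC2). Between siCTR and NO, 1 was called lower, 0 at 4 times the pseudocount, with the 75th percentile required, as the mean over probe sets or without _x_at and _s_at probe sets, and 2 with no filter, while 0 were called higher and 2 at 1.5-fold. limma called 0 lower and 0 higher, and 12 and 3 with the 75th percentile required. Because 1 pool above that percentile suffices, those last counts cannot decide the direction for KIFC2 or for mitotic kinesins below it in siPIR. The mitotic median against siCTR was -1.87 without _x_at and _s_at probe sets. The transport median against NO was 0.135 both with no filter and without those probe sets. Where not explained, the cause was not tested.

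With 1 array left out, 11 to 15 kinesins were called lower and 1 to 3 higher than siCTR, 10 to 13 lower and 1 to 3 higher than NO, and 10 to 12 lower and 1 higher than both, among them 10 to 12 mitotic and 0 transport kinesins. Between siCTR and NO it was 0 to 2 in each direction, and limma called 0 in either. The mitotic median ran from -1.73 to -1.56 against siCTR, from -1.75 to -1.52 against NO and from 0.0249 to 0.0964 between controls, and the transport median from 0.13 to 0.37, 0.17 to 0.31 and -0.09 to 0.02. Of the values of single kinesins under the alternatives, 919 moved by no more than the spread between arrays and 29 by more. No called value changed sign. The 919 are no measure of stability, as they include values that a setting leaves as they were. On the same probe set, leaving out 1 array of 2 cannot shift a pool mean by more than that spread. Without siCTR replicate 2, 1 kinesin was called higher than siCTR, and without siPIR replicate 2 or NO replicate 1, 1 was called higher than NO. As the mean over probe sets KIF16B turned to 0.29 and 0.43, KIF13A to -0.06 and -0.35, and KIF9 to 0.60 and 0.68 against siCTR and NO. With the first listed promoter alone (added after the data were seen), 11 of 14 mitotic and 1 of 12 transport kinesins held a CHR, against 16.6% of all genes.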
